A study of Mus musculus with 11 samples.

Results

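Calpains are calcium-regulated cysteine proteases, and the genes described here are those of the calpain family together with calpastatin, the inhibitor of the classical calpains. They were chosen by symbol, from a list of 9 genes (Capn1, Capn2, Capn3, Capn5, Capn7, Capn10, Capn12, Capns1 and Cast). This list and the related gene lists below were chosen with earlier results of these data known, so counts over them are descriptions. A row of counts was found for 8 of the 9 among the 14602 genes of the count table; counts of Capn3, the calpain of skeletal muscle, were not analysed here. Tissue was RPE/choroid, the retinal pigment epithelium (RPE) with the vascular layer beneath it, from C57BL/6J mice at 12 months of age. The 5 laser treated libraries came from mice given the 2RT nanosecond laser at 9 months of age, 3 months before collection, and the 6 naïve control libraries from age-matched mice that were never lasered. The labels name no transgene in either group. Laser was applied to 1 eye, at spots confined to the central retina, whereas the lysate was made from the posterior eyecup after the neural retina had been taken off, so a laser treated library mixes lasered and non-lasered tissue. The labels do not name the animal behind each library, and p-values measure the spread between these libraries.

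Classical calpains are heterodimers. Capn1 encodes the catalytic subunit of calpain 1 (µ-calpain) and Capn2 that of calpain 2 (m-calpain), and both pair with the small regulatory subunit encoded by Capns1. Calcium opens the enzyme and lets it cut a limited number of sites in its substrates, many of them proteins that link the membrane to the cytoskeleton, while calpastatin, encoded by Cast, binds and blocks the active dimer. Several of the other members lack the EF-hand domain through which the classical subunits pair. Capn5 is known in the eye because altered forms of it cause an inherited inflammatory vitreoretinopathy, Capn7 binds proteins of the endosomal sorting machinery, Capn10 has been studied for its part in insulin secretion and glucose handling, and Capn12 is best known from skin and hair follicles.

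The active site shows how these members are related, and the stretch around its catalytic cysteine is printed for every catalytic member with a row of counts. Each line gives 45 bases of coding sequence, 5′ to 3′ on the coding strand, read from the GENCODE M21 transcript with the longest coding sequence on GRCm38, and the capitals mark the cysteine codon. Capn6 and Capn15 are set below them as the only other calpain genes with a row (2 of 9 looked for); in Capn6, which is known as a calpain without protease activity, the capitals mark the lysine codon found at the aligned position.
Capn1: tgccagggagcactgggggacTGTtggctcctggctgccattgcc
Capn2: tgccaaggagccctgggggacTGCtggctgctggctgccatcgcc
Capn5: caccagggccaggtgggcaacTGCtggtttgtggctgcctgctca
Capn7: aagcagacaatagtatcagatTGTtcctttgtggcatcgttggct
Capn10: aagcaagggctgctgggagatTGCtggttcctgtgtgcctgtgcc
Capn12: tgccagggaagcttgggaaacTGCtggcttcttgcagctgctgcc
Capn6: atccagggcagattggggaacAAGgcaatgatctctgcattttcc
Capn15: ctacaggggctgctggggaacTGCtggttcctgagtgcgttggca
The marked codon is number 115 of the coding sequence in Capn1, 105 in Capn2 and in Capn12, 81 in Capn5 and in Capn6, 290 in Capn7, 73 in Capn10 and 628 in Capn15. Capn1 and Capn2 shared 40 of the 45 bases, more than any other pair among the 8 windows. Capn12 shared 32 with each of them, whereas Capn7 shared 21 with Capn1 and 18 with Capn2.

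Library totals ranged from 25700881 to 36766020 counts in naïve control and from 32094560 to 38755994 in laser treated samples. The RPE markers summed to between 75303 and 129693 CPM (counts relative to the library size, as edgeR scales it by TMM), and all 12 had a row. Photoreceptor markers summed to between 5138 and 28412 CPM although the neural retina had been removed, and genes of surface epithelium, skeletal muscle, melanocytes, endothelium, fibroblasts, macrophages, Schwann cells and blood were also present. The transcript files carry a label of unstated meaning, R1 in naïve control libraries 1 to 3 and laser treated libraries 1 and 2 and R2 in the rest, and values are also given within it. Each label holds so few libraries that ranges lying apart within it are descriptions only. The share of all genes that lie apart within a label was not counted.

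Transcripts of the regulatory subunit were the most abundant of the family. Per kilobase of exon, Capns1 averaged 29.9 ± 5.14 CPM (SD, n = 11 libraries of both groups) and lay in the 89.0th percentile of the 14252 genes with a known length. Capn6 followed at 19.95 ± 4.49, and Capns1 was above it in 11 of 11 libraries. Capn7 averaged 12.0 ± 3.26 and Capn2 10.5 ± 2.63 CPM per kilobase, and their order was not settled, with Capn7 higher in 6 of 11 libraries and Capn2 ahead once the longest transcript replaced the union of exons. Then came Capn10 at 4.83 ± 1.71 and Cast at 3.09 ± 1.29, with Capn10 the higher in 9 of 11 libraries. Capn5 (1.148 ± 1.01), Capn15 (1.08 ± 0.609), Capn1 (0.735 ± 0.477) and Capn12 (0.651 ± 0.317) formed the low end, and none of these neighbours kept one order in all libraries. Of the classical catalytic subunits, then, Capn2 was the abundant one, with a mean level per kilobase of exon 14.3 times that of Capn1. These values depend on the length used. Per kilobase of the longest transcript Capn2 averaged 20.6 CPM and Capn1 0.803 CPM. By that length Capn1 ranked below Capn12, and Capn10 was above Cast in 7 of 11 libraries.

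**Figure D1:**
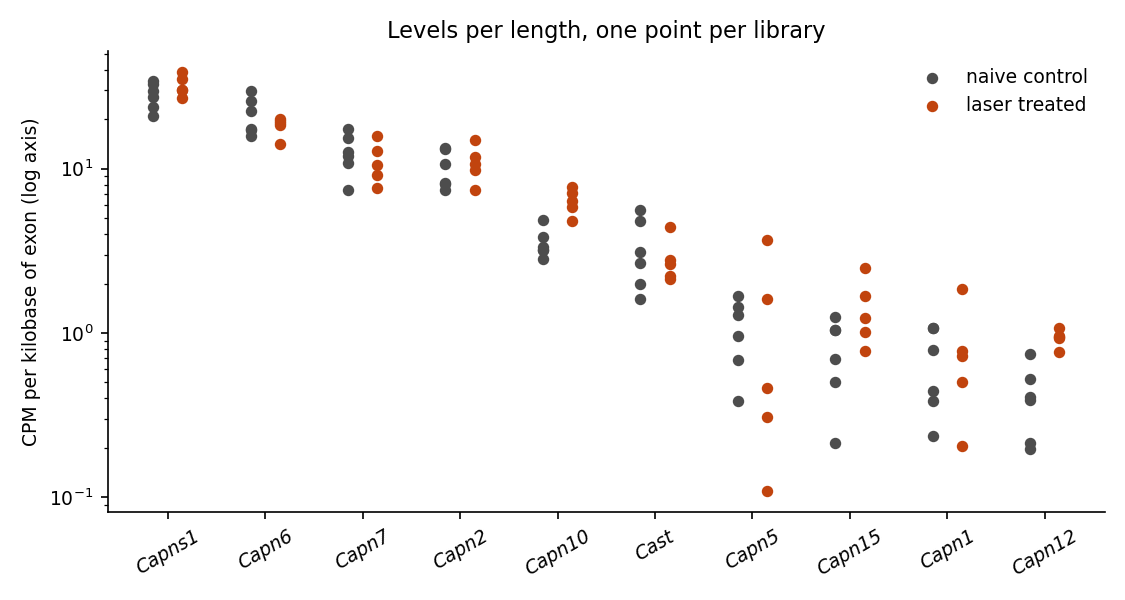
Level of each calpain gene and of calpastatin in CPM per kilobase of exon (log axis), one point per library, with the 6 naïve control libraries in grey and the 5 laser treated libraries in orange. Capns1 lies highest, and the mean of Capns1 is 46.0 times that of Capn12, the lowest by this measure.

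The comparison of laser treated with naïve control libraries asks whether the transcripts of the family differed 3 months after the laser. By edgeR's quasi-likelihood test, 0 of the 8 members passed an adjusted p under 0.05, as did 0 of all 14602 genes (0%). At an unadjusted p under 0.05 lay 2 members, Capn10 and Capn12, both higher after laser, where 2325 of all genes (15.9%) lay under it and 1203 (8.24%) were also higher. DESeq2 called 1 member, Capn10, which was higher, among 547 genes called in all (3.75%), of which 269 were higher (1.84% of all genes). These shares are of all 14602 genes, including those to which DESeq2 gave no adjusted p, among them Capn1, Capn5 and Capn12. The sign of the fold change was upward in 6 members and downward in 2, with a median log2 fold change of 0.20 against -0.02 over all genes, 48.5% of which were higher. In whole tissue of this kind fewer cells of a type and less RNA per cell cannot be told apart.

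Capn10 (ENSMUSG00000026270) occupies chr1:92934376-92947941 on the plus strand of GRCm38 and encodes a calpain without that EF-hand domain. In naïve control libraries its level ran from 12.3 to 21.2 CPM with a median of 14.2, and in laser treated libraries 1 to 5 it was 20.8, 30.9, 27.7, 33.4 and 25.5 CPM. A single control, library 6, lay above the lowest laser treated library, and the other 5 controls lay below all of them. The log2 fold change was 0.84 (SE 0.19, 95% confidence interval 0.43 to 1.25), with an unadjusted p of 6.41e-04, the 47th smallest of all genes, and an adjusted p of 0.172 in edgeR; DESeq2 gave an adjusted p of 0.0116. Counts of 341 to 1165 per library stood behind these values. Within label R1 controls had 12.3 to 14.5 and laser treated libraries 20.8 to 30.9 CPM, and within R2 they had 13.9 to 21.2 and 25.5 to 33.4 CPM. The log2 fold changes within R1 and R2 were 0.95 and 0.76 (edgeR adjusted p = 0.200 and 0.790).

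The assembled transcripts, which StringTie built separately in each library as single-exon fragments, show where the Capn10 reads lay. Between 6 and 8 fragments per library fell on Capn10, and 4 of its 12 exon blocks were touched in all 11 libraries while 1 was touched in none. In naïve control libraries 48.4 to 72.5% of its exon bases were covered by a fragment and in laser treated libraries 64.3 to 92.3%. Bases outside annotated exons made up 0.689 to 34.6% of the fragments, with a median of 22.6%. A pair of coding exons of Capn10 that were assembled in every library is printed here to show the sequence from which the counts came, read 5′ to 3′ on the plus strand of GRCm38.
Capn10 exon 7 of 12, chr1:92943679-92943941: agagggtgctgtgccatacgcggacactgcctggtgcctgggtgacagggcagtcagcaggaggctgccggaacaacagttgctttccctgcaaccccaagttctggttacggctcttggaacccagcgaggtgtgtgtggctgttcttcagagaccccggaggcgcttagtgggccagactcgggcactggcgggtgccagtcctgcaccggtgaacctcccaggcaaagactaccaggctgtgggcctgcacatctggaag
Capn10 exon 9 of 12, chr1:92945017-92945278: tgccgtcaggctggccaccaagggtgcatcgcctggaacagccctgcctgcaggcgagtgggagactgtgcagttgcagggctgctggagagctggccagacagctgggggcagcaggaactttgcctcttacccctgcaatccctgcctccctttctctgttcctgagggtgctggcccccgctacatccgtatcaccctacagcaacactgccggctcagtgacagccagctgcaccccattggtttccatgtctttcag
Exon 7 has 62.4% and exon 9 has 61.8% G and C. An antisense gene, 9430060I03Rik, runs across the whole of Capn10 and shares 639 of its exon bases. The library kit does not mark strand, so reads there cannot be told apart. 9430060I03Rik averaged 2.44 CPM in naïve control and 1.68 CPM in laser treated samples (log2 fold change -0.54, not called by edgeR), and its part in the Capn10 counts was not tested.

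Capn12 (ENSMUSG00000054083), at chr7:28881422-28893563 on the plus strand, was the member whose groups did not overlap. Controls ran from 0.937 to 3.57 CPM with a median of 1.91, and laser treated libraries 1 to 5 had 4.57, 4.46, 4.51, 3.64 and 5.14 CPM. Every laser treated library thus lay above every control, as it did for 204 of all genes (1.4%), while the groups of 330 genes (2.26%) were apart in either direction. The log2 fold change was 1.18 (SE 0.46, 95% confidence interval 0.18 to 2.17) with an edgeR p of 0.0237 and an adjusted p of 0.245, and DESeq2 gave no adjusted p for it. Depth was slight, with 29 to 118 counts in controls and 127 to 171 in laser treated libraries. Capn12 is one of the genes that the study displays from these same libraries and is not independent evidence of its direction. Within label R1 the ranges were 0.937 to 1.95 and 4.46 to 4.57 CPM and within R2 1.02 to 3.57 and 3.64 to 5.14 CPM, with log2 fold changes of 1.53 and 0.93 (edgeR adjusted p = 0.369 and 0.847).

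**Figure D2:**
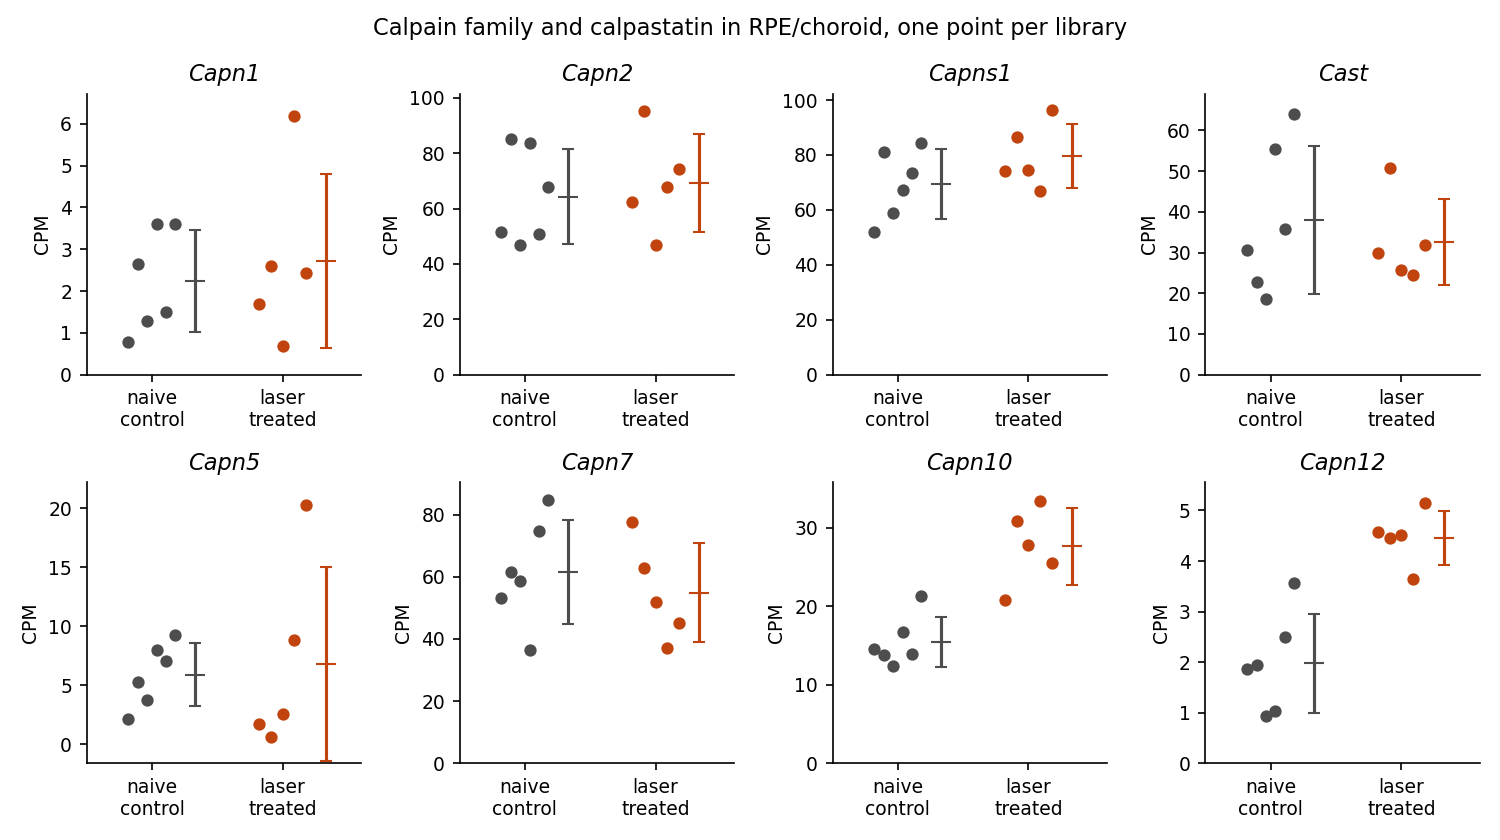
CPM of the 8 members in each library (points) with the mean and SD of each group (bars), 6 naïve control libraries in grey and 5 laser treated libraries in orange. The groups are apart in Capn12 and nearly so in Capn10, and they overlap in the other 6 panels.

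Fragments assembled on Capn12 did not trace a whole transcript. Of its 20 exon blocks only the ninth, chr7:28887573-28887736, was touched by a fragment in all 11 libraries, and 9 blocks were touched in none. Sparse assembly was not particular to Capn12. In Capn5 1 of 17 blocks was touched in all libraries and 9 in none, in Capn7 1 of 20 and 10. For Cast these numbers were 1 of 35 and 23, and for Capn1 0 of 24 and 21. The fragments over the ninth exon lay within chr7:28886322-28888908, and their mean read depth was 3.68 to 8.31 in naïve control and 8.66 to 14.6 in laser treated libraries, a second readout of the same reads. The first exon was touched in 0 of 6 controls and in 2 of 5 laser treated libraries. Introns held 45.7 to 82.6% (median 54.6%) of the fragment bases within Capn12, against medians of 0.046% in Capn1, 22.6% in Capn10 and 35.8% in Capns1. In every library the fragment over the ninth exon spanned at least chr7:28887330-28887760, so intron on both sides of that exon was assembled as well. Exon 9 of 21 in the reference transcript is printed because it is the only exon of Capn12 touched in every library, read 5′ to 3′ on the plus strand.
Capn12 exon 9, chr7:28887573-28887736: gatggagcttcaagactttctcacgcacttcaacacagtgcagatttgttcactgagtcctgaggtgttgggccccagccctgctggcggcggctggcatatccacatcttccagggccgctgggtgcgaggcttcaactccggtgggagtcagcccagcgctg
The antisense gene Gm44700, at chr7:28887127-28888483, covers this exon on the opposite strand and shares 203 exon bases with Capn12, and it had no row of counts here. At the 3′ end Capn12 shares 316 exon bases with Actn4, which encodes the actin cross-linker α-actinin 4 and runs on the opposite strand. Fragments assigned to Capn12 reached into the Actn4 gene in 2 controls and 3 laser treated libraries. Actn4 itself averaged 256 ± 53.4 CPM in controls (SD, n = 6) and 368 ± 74.2 CPM after laser (SD, n = 5) (log2 fold change 0.52, edgeR adjusted p = 0.185). Without strand the reads of these genes cannot be told apart, and their part in the Capn12 counts was not tested.

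**Figure D3:**
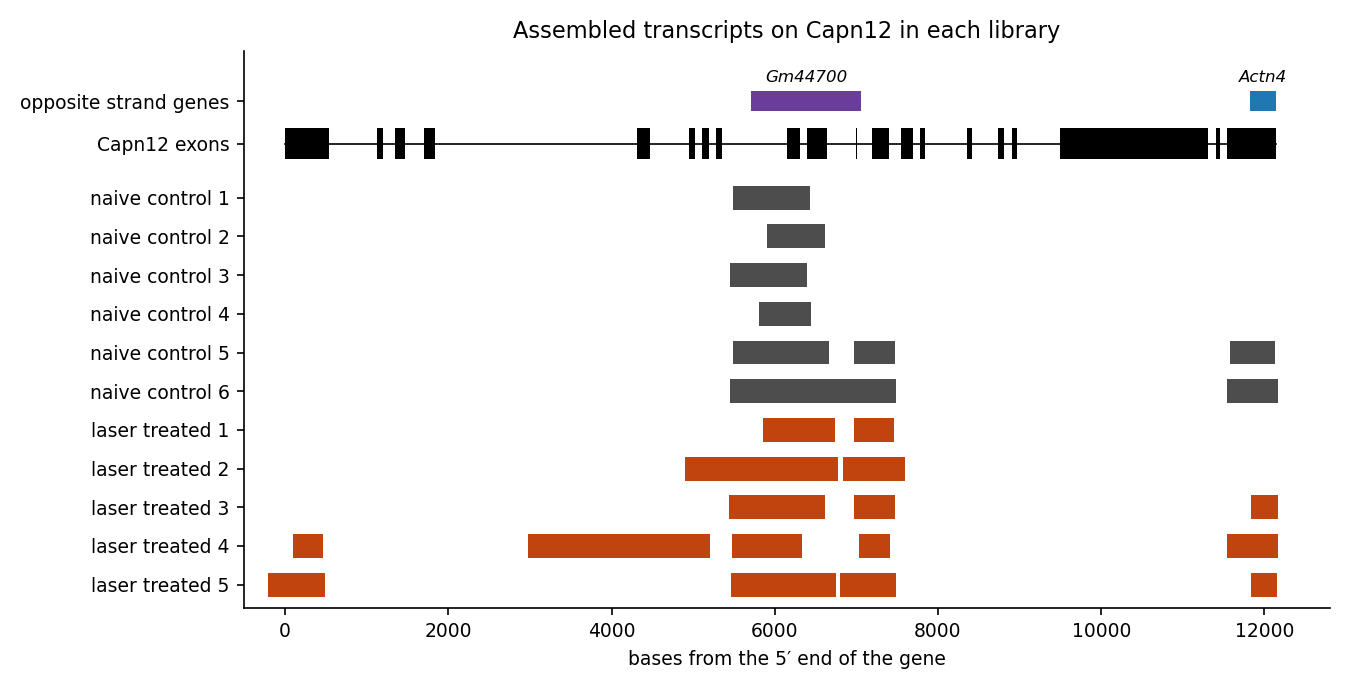
Assembled fragments on Capn12 in each library (bars, grey for naïve control and orange for laser treated), by distance in bases from the 5′ end of the gene, under the annotated exons in black and the genes on the opposite strand. All 11 libraries have a fragment over the ninth exon, in the part of the gene that Gm44700 covers, and 5 libraries have one at the 3′ end next to Actn4.

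Neither classical catalytic subunit passed the test. Capn2 (ENSMUSG00000026509, chr1:182467260-182517608, minus strand) ran from 46.7 to 85.3 CPM in naïve control libraries with a median of 59.7, and had 62.5, 95.2, 47.0, 67.7 and 74.2 CPM in laser treated libraries 1 to 5. The groups overlapped almost entirely, and the log2 fold change of 0.11 had a 95% confidence interval of -0.34 to 0.56 (edgeR adjusted p = 0.867). Without laser treated library 2, the highest of all, the value was -0.03. Capn1 (ENSMUSG00000024942, chr19:5988545-6015897, minus strand) rested on 24 to 216 counts per library, with 0.793 to 3.61 CPM (median 2.06) in controls and 1.68, 2.61, 0.685, 6.19 and 2.43 CPM in laser treated libraries 1 to 5. Laser treated library 4 alone was above all controls. Its log2 fold change of 0.28 (95% confidence interval -1.09 to 1.66, edgeR adjusted p = 0.889) became -0.28 without that library. In 3 libraries (naïve control 1, laser treated 1 and 3) no fragment of Capn1 was assembled, and 21 of its 24 exon blocks were touched in none. On the opposite strand Gm37885 shares 1717 exon bases with Capn2 and Gm10814 shares 394 with Capn1. Neither had a row of counts here, and their part in the counts was not tested.

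Capns1, the regulatory subunit (ENSMUSG00000001794, chr7:30186936-30198811, minus strand), had 51.9 to 84.3 CPM in naïve control libraries with a median of 70.3, and 74.3, 86.4, 74.4, 66.9 and 96.2 CPM in laser treated libraries 1 to 5. Of the 5 laser treated libraries 4 lay above the control median, but the ranges overlapped. The log2 fold change was 0.20 (SE 0.15, 95% confidence interval -0.13 to 0.52, edgeR adjusted p = 0.580). Gm26810, an antisense gene without a row of counts, shares 202 exon bases with Capns1.

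Cast, the inhibitor (ENSMUSG00000021585, chr13:74692368-74808810, minus strand), ran from 18.6 to 64.1 CPM in naïve control libraries with a median of 33.2, and had 29.9, 50.7, 25.7, 24.6 and 31.9 CPM in laser treated libraries 1 to 5. The pooled log2 fold change of -0.22 (SE 0.32, edgeR adjusted p = 0.812) covered opposite signs within the labels. Under R1 controls had 18.6 to 30.7 CPM and laser treated libraries 29.9 to 50.7 CPM, whereas under R2 controls had 35.7 to 64.1 CPM, all above the 24.6 to 31.9 CPM of the laser treated libraries. The controls of R2 were also all above the controls of R1. Within R2 the log2 fold change of Cast was -0.90 (edgeR adjusted p = 0.790), and within R1 it was 0.77 (edgeR adjusted p = 0.296). Whether the labels differed was not tested. Cast shares 834 exon bases with the antigen-trimming peptidase gene Erap1 on the opposite strand, which averaged 26.8 CPM in naïve control and 29.1 CPM in laser treated samples (edgeR adjusted p = 0.877).

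Because protease, partner and inhibitor act together, the ratios of their transcripts were compared within each library, per kilobase of exon. Such ratios do not give protein amounts or calpain activity, which were not measured here. The ratio of Capn2 to Cast was 1.91 to 6.75 (median 2.88) in naïve control libraries and 3.77, 3.40, 3.31, 4.98 and 4.20 in laser treated libraries 1 to 5. Laser treated values lay inside the control range, and the mean log2 ratio was 0.24 higher after laser (SE 0.29, exact two-sided permutation test, p = 0.452). For Capn1 to Cast the ratio was 0.0884 to 0.396 in controls and 0.0916 to 0.864 in laser treated libraries, a log2 difference of 0.28 (SE 0.61, exact permutation p = 0.660). Capn1 to Capn2 differed by 0.04 on the log2 scale (SE 0.50, exact permutation p = 0.913). Capns1 stood at 1.90 to 3.49 times the sum of Capn1 and Capn2 in controls and 2.16 to 3.95 times in laser treated libraries, a log2 difference of 0.08 (SE 0.21, exact permutation p = 0.706). None of the 4 ratios differed beyond the spread between libraries (adjusted p = 0.913 for each over the 4 exact permutation tests), where the smallest p that 462 splits allow is 0.00216. Within the labels the Capn2 to Cast difference was -0.34 under R1 and 0.79 under R2, and permuting within labels gave p = 0.425 (200 splits, exact permutation test). On the TPM of the assembled transcripts the Capn2 to Cast difference was 0.66 (exact permutation p = 0.0714) and that of Capns1 to both catalytic subunits 0.22 (exact permutation p = 0.238).

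Capn7 (ENSMUSG00000021893, chr14:31336638-31371986, plus strand) is the member whose active site window was least like those of the classical calpains. Controls had 36.5 to 84.7 CPM with a median of 60.2, and laser treated libraries 1 to 5 had 77.8, 62.9, 51.8, 37.3 and 45.0 CPM. The groups overlapped throughout (log2 fold change -0.16, SE 0.23, edgeR adjusted p = 0.803). Sh3bp5, on the opposite strand, shares 116 exon bases with Capn7 and averaged 12.2 CPM in naïve control and 15.4 CPM in laser treated samples. Under label R1 the laser treated libraries, at 62.9 to 77.8 CPM, were above the controls, at 53.1 to 61.7 CPM, while under R2 the laser treated range of 37.3 to 51.8 CPM lay inside the control range of 36.5 to 84.7 CPM.

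Capn5 (ENSMUSG00000035547, chr7:98121559-98178274, minus strand) had the widest span of levels between libraries of any member. Controls ran from 2.12 to 9.22 CPM with a median of 6.13, and laser treated libraries 1 to 5 had 1.68, 0.598, 2.54, 8.85 and 20.3 CPM, a 33.9-fold span within the treated group. Laser treated library 5 was above every control, and libraries 1 and 2 were below every control. The log2 fold change of 0.21 (SE 0.72, edgeR adjusted p = 0.930) turned to -0.78 without library 5. Under label R1 controls had 2.12 to 5.23 CPM, all above the 0.598 to 1.68 CPM of the laser treated libraries. Under R2 controls had 7.02 to 9.22 CPM and laser treated libraries 2.54 to 20.3 CPM. The log2 fold changes within R1 and R2 were -1.68 and 0.42 (edgeR adjusted p = 0.413 and 0.951).

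The libraries rich in Capn5 were those rich in surface epithelium markers. The keratins and related genes of this list (10 of 14 with a row, Perp the most abundant; Trp63, Dsg3, Dsc3 and Lgals7 had none) summed to 268 to 1904 CPM in naïve control libraries and to 288, 221, 293, 546 and 1564 CPM in laser treated libraries 1 to 5. Laser treated library 2 was lowest and library 5 highest of its group in both measures, and naïve control library 6 was the highest control in both. After removal of group means the log2 values had a Pearson r of 0.87 and a Spearman rho of 0.95 (n = 11 libraries, which share their depth and scaling, as a description). Photoreceptor markers gave r = -0.18, RPE markers r = -0.32 and melanocyte markers r = 0.57 with Capn5. Genes whose pattern was most like that of Capn5 over the 11 libraries were Gsto1 (r = 0.97), which encodes a glutathione transferase, Elf3 (r = 0.97), an epithelial transcription factor, and Alox12e (r = 0.96), an epidermal lipoxygenase. For Capn12 they were Stx18 (r = 0.90), a syntaxin of the endoplasmic reticulum, Irf3 (r = 0.90), an interferon regulatory factor, and Psmd3 (r = 0.90), a subunit of the proteasome. The part of surface epithelium in the Capn5 counts was not tested.

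**Figure D4:**
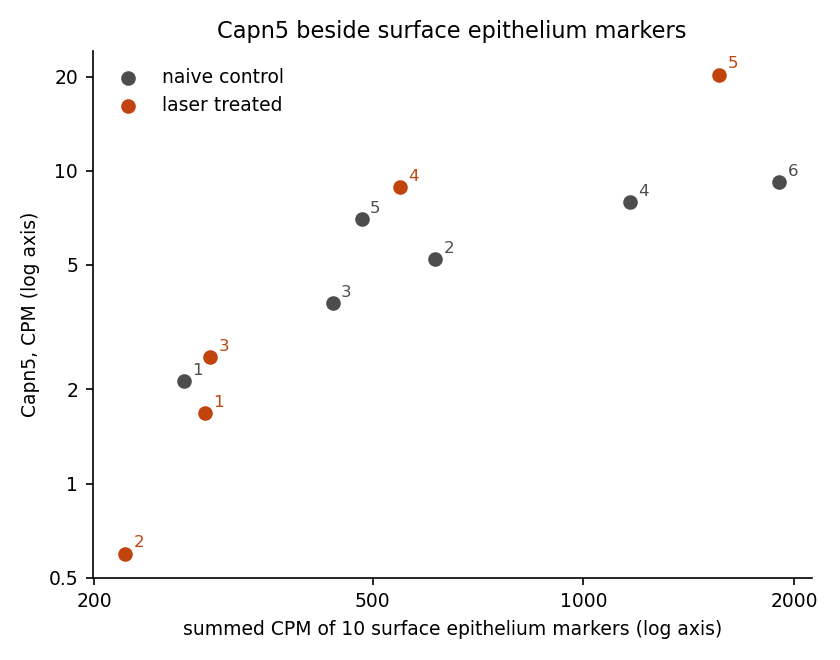
CPM of Capn5 against the summed CPM of the 10 surface epithelium markers with a row, both on log axes, with each point 1 library numbered within its group. Laser treated library 2 lies at the lower left and laser treated library 5 and naïve control library 6 at the upper right.

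Other members shared companions, given over 11 libraries after removal of group means. Capns1 had r = -0.74 with the photoreceptor sum, where Cast had -0.70, Capn6 -0.66 and Capn2 -0.60. With the surface epithelium sum Capn6 had r = 0.66, Capns1 0.61 and Capn1 0.60, whereas Capn7 had -0.22 and Capn15 -0.01. Capn7 had r = 0.73 with the RPE sum. Capn2 had r = 0.83 with the macrophage sum, 0.80 with the fibroblast sum and 0.78 with the skeletal muscle sum. The macrophage sum was also the closest for Cast (r = 0.71) and Capn1 (r = 0.67). Capn10 lay closest to the macrophage sum (r = 0.60), and Capn12 had r = 0.45 with the RPE sum and r = -0.46 with the photoreceptor sum. The macrophage sum ranged from 316 to 999 CPM in naïve control and from 448 to 1023 CPM in laser treated libraries, and Lyz2 was its most abundant gene. Schwann cell markers (7 of 10 with a row, Pmp22 the most abundant) summed to 411 to 715 CPM in controls and 624 to 1358 CPM in laser treated libraries, and 4 of them had an unadjusted p under 0.05 in edgeR, all higher after laser. Capn10 and Capn12 had r = -0.26 and r = 0.03 with the Schwann cell sum. Group means were removed before these correlations, so they cannot bear on the difference between the groups. The part of Schwann cells in the Capn10 and Capn12 counts was not tested.

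Fold changes in these libraries moved with the base composition of transcripts. Over all genes with a known sequence the median log2 fold change went from -0.37 in the tenth of genes with the least G and C to 0.30 in the tenth with the most. Capn12 (58.5% G and C), Capn10 (57.9%), Capns1 (57.3%), Capn1 (57.1%), Capn5 (56.0%) and Capn2 (51.8%), the 6 members with an upward sign, were all above the median gene (49.8%), and Cast (42.8%) and Capn7 (42.2%), with a downward sign, were below it. After the trend with G and C was removed in each library, Capn10 had a log2 fold change of 0.61 (edgeR adjusted p = 0.674) and Capn12 one of 0.96 (edgeR adjusted p = 0.683). Capn10 then stayed under the unadjusted threshold of 0.05 and Capn12 did not. Capns1, Capn5, Cast and Capn7 turned sign, 4 of 8 members, where 16.9% of all genes did. Their values were then -0.02, -0.06, 0.06 and 0.15, so no direction is given for these 4.

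**Figure D5:**
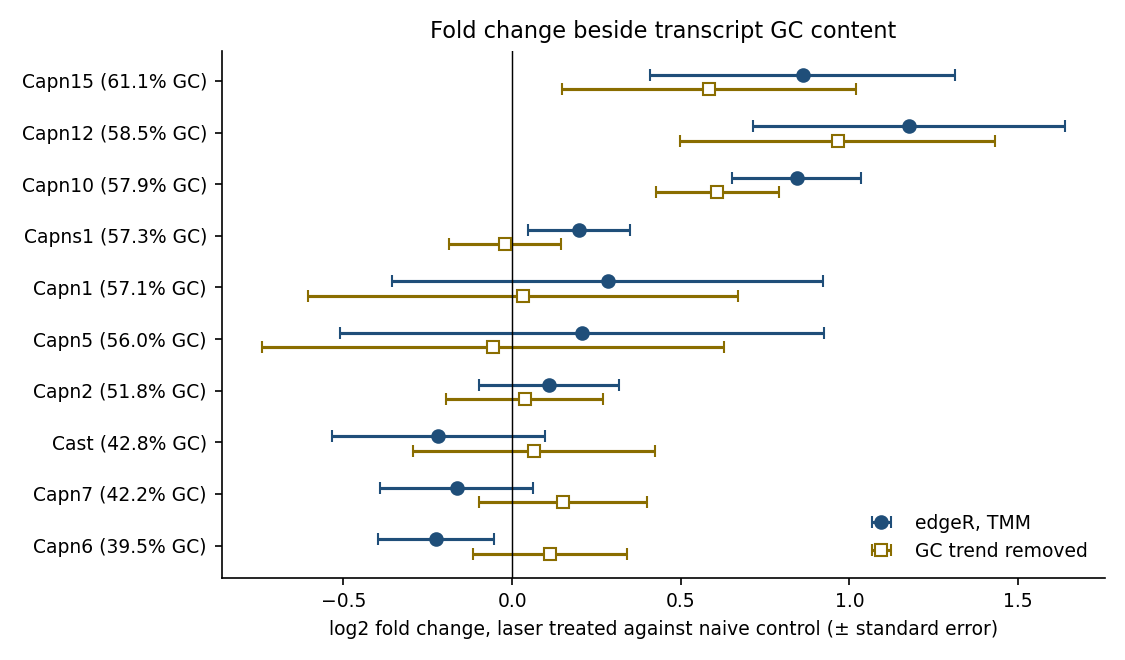
Log2 fold change of each calpain gene and of calpastatin, laser treated against naïve control, with its standard error, before (filled) and after (open) the trend with G and C content was removed, ordered by G and C content. Capn10, Capn12 and Capn15 stay to the right of 0 in both, as do Capn1 and Capn2 with values near 0 after removal (0.03 and 0.04), while Capns1, Capn5, Cast, Capn7 and Capn6 cross it.

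Capn6 and Capn15 are calpain genes outside the chosen list. Capn6, the form with lysine at the active site, had 124 to 231 CPM in naïve control libraries and 111 to 157 CPM in laser treated libraries (log2 fold change -0.22, SE 0.17, edgeR adjusted p = 0.580). Capn15, listed under its older symbol Solh, had 1.23 to 7.16 CPM with a median of 4.95 in controls and 5.80, 4.46, 9.59, 14.2 and 7.09 CPM in laser treated libraries 1 to 5. Its log2 fold change was 0.86 (SE 0.45, edgeR adjusted p = 0.374). Without laser treated library 4 it was 0.56, and within the labels it was 0.08 under R1 and 1.34 under R2. For Capn3 a fragment lying mainly on its exons was assembled in naïve control library 2 (1.41 TPM, the length-scaled abundance of StringTie) and library 3 (0.623 TPM), and in none of the other 9 libraries.

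Proteins that calpains are known to cut were followed by 2 lists. Of 22 measured genes for cytoskeletal and adhesion substrates, 16 had an upward sign and 3 had an unadjusted p under 0.05, all higher after laser, with 0 called by edgeR, 2 by DESeq2 and a median log2 fold change of 0.21. These were Pxn, for the focal adhesion scaffold paxillin, at 51.2 ± 7.13 (SD, n = 6) and 70.2 ± 5.93 CPM (SD, n = 5) (log2 fold change 0.46, edgeR adjusted p = 0.174), Actn4, given above, and Cttn, for the actin-binding cortactin (0.37, edgeR adjusted p = 0.303). Of 21 measured genes for signalling and cell death substrates, 2 had an unadjusted p under 0.05, both higher: the kinase gene Src and the calcineurin regulator Rcan1, each with a log2 fold change of 0.46 (edgeR adjusted p = 0.298 and 0.304). The median of that list was 0.06. As for the members, these shares stand beside 8.24% of all genes higher and 7.68% lower at that threshold. Of all genes 48.5% had an upward sign, and DESeq2 called 3.75%, with 1.84% higher. The substrate genes named here had 53.1 to 59.3% G and C, where the median gene had 49.8%.

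Caspases, the other main cysteine proteases of cell death, and their inhibitors had 12 measured genes. Casp9, the initiator caspase of the mitochondrial pathway, stood at 24.7 ± 6.32 CPM in controls (SD, n = 6) and 39.3 ± 8.89 CPM after laser (SD, n = 5) (log2 fold change 0.67, edgeR adjusted p = 0.182). Xiap, which encodes an inhibitor of caspases, had 94.2 ± 44.0 and 50.1 ± 14.3 CPM (log2 fold change -0.91, edgeR adjusted p = 0.222). They were the 2 genes of that list under an unadjusted p of 0.05, with 53.4% and 36.8% G and C, and DESeq2 called 1 gene of the list, higher after laser, beside 15.9% and 3.75% of all genes. Among 10 measured partners of membrane repair, in which calpains act with dysferlin and annexins, 0 had an unadjusted p under 0.05 in edgeR and 0 were called by DESeq2, with a median log2 fold change of -0.05.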

How the data were processed

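RPE/choroidal RNA of 6 naïve control and 5 laser treated samples was pre-amplified with SmartSeq v4 and made into unstranded NexteraXT libraries. The authors deposited raw counts per gene and library, without normalization or pooling. Submitters' notes name bcl2fastq 2.18.0.12, Trim Galore, STAR 2.5.3a, featureCounts 1.5.3, StringTie 1.3.3 and edgeR 3.22.3, and the builds mm10 and GRCm38. The log2 columns deposited by the authors hold their fold changes and mean abundances, the authors' score column holds an F statistic, and the deposited p-value and FDR columns belong to their own comparison. None of these was used. StringTie transcripts deposited per library, each of 1 exon, gave coverage and TPM.

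Groups followed the labels. Counts of 14602 genes were compared with edgeR 4.0.16 in R 4.3.3 (TMM, filterByExpr, which removed 0 genes, robust quasi-likelihood test, two-sided, Benjamini-Hochberg adjustment over all genes, called at an adjusted p under 0.05). Libraries held 25700881 to 38755994 counts, CPM used TMM library sizes of 24650116 to 36901716, and each standard error gives the precision of its fold change. Ratios used exact two-sided permutation tests over 462 splits. Lengths, positions and sequences came from GENCODE M21 on GRCm38, and 14252 genes had a known length. Correlations used log2(CPM + 0.5) after removal of group means. Fragments were given to the gene with most shared exon bases. Python 3.11.15, numpy 2.4.6, pandas 2.3.3 and scipy 1.17.1 made the tables, and the methods were tested on simulated data.

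Members and gene lists were chosen with earlier results of these data known. Named were all members with a row, up to 4 genes with the smallest p in each related list, and genes sharing exon bases with a member. Also named were the 3 genes most like Capn5 and Capn12 and the most abundant or unlisted markers. The rule also names Capn3, which had no row. Alternatives were DESeq2 1.42.0, other normalizations and filters, no robust estimation, limma 3.58.1 (voom, or trend on log2 TPM after adding 1 or 0.1), a replicate block, removal of trends with G and C content or length (loess span 0.3), the label as a covariate or within it, and each library left out in turn.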

Additional observations from a re-analysis of the deposited data

Results flagged for a closer look

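Of 48 sets of group values examined, 5 held a library whose gap to its nearest neighbour exceeded Dixon's 95% critical value, and chance sets apart about 5% of such sets. Cast in laser treated library 2 was 50.7 CPM, where the other 4 libraries of the group had 24.6 to 31.9 CPM. Capn6 in laser treated library 3 was 111 CPM against 144 to 157 CPM in the others. The surface epithelium sum in laser treated library 5, the library with the most Capn5, was 1564 CPM against 221 to 546 CPM. The melanocyte sum in naïve control library 4 was 3337 CPM against 1530 to 2131 CPM. The blood sum in laser treated library 5 was 163 CPM against 42.8 to 75.7 CPM.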

How the results depend on the processing

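Capn10 and Capn12 kept an upward sign in all 28 alternatives, with log2 fold changes of 0.60 to 0.95 (adjusted p 0.0116 to 0.790) and 0.93 to 1.66 (adjusted p 0.135 to 0.847). All alternatives reuse the same 11 libraries and are not independent of each other. Dropping the filter on low counts repeats the main fit, because filterByExpr removed 0 genes. DESeq2 called 547 genes and 1 member, Capn10 (0.84, adjusted p = 0.0116); Capn1, Capn5 and Capn12 had no adjusted p there. A minimum of 10 counts in every library gave 2 calls over all genes, voom 1, and log2 TPM with a pseudocount of 1 or 0.1 gave 2 each. With TPM and a pseudocount of 1, 1397 genes were higher and 673 lower at an unadjusted p under 0.05, against 1203 and 1122 in counts. Leaving out 1 library gave 0 to 4 calls (4 without laser treated library 2) and 1685 to 2771 genes at an unadjusted p under 0.05. That count was 1071 with the G and C trend removed, 1424 with that and the replicate block, 903 within label R2 and 958 with the trend removed and the label as a covariate, an alternative chosen after seeing the data. A single member, Capn10, lay under that p (1 in place of 2) with the trend removed, within R1, and with the trend removed beside the label. Within R2 there were 2, Capn10 and, with a lower level after laser, Cast (-0.90), and Capn12 (0.93) was not among them.

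Signs turned as follows, and the cause was not tested. Capn5: voom -0.78, TPM with 0.1 -0.044, replicate block -0.40, G and C trend removed -0.057, with the block -0.60, label covariate -0.47, within R1 -1.68, trend with label -0.66, left-out libraries -0.78 to 0.50. Cast: block 0.035, trend 0.064, trend with block 0.39, within R1 0.77, trend with label 0.15. Capn7: trend 0.15, trend with block 0.29, within R1 0.31, trend with label 0.14. Capn6: trend 0.11, trend with block 0.30, within R1 0.20, trend with label 0.14. Capns1: trend -0.022, trend with label -0.019. Capn1: TPM with 0.1 -0.36, left-out libraries -0.28 to 0.53. Capn2: within R2 -0.075, left-out libraries -0.033 to 0.22. With the trend removed the ratios turned too, to -0.25 for Capn1 to Cast, -0.13 for Capn2 to Cast, -0.12 for Capn1 to Capn2 and -0.066 for Capns1 to both. With 1 library left out they ran from -0.19 (without laser treated library 4) to 0.62, from 0.09 to 0.45, from -0.35 (without laser treated library 4; -0.17 without naïve control 1) to 0.32, and from -0.044 (without laser treated library 3; -0.014 without naïve control 4) to 0.17.

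Replicate numbers did not pair the samples: correlations of same-numbered libraries were -0.01, 0.12, 0.28, -0.01 and -0.01, and 2 of 5 correlated best with their own number. With the replicate block 2539 genes had an unadjusted p under 0.05 and 0 were called, and Capn10 had a log2 fold change of 0.93. TPM gave 0.66 for Capn2 to Cast and 0.22 for Capns1 to both, in place of 0.24 and 0.08, and neither passed the threshold. Ratios of TPM with Capn1 alone were not run, since it was listed at 0 in 3 libraries. Capn1, Capn5 and Capn12 rest on few counts in some libraries (as few as 24, 22 and 29).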
